A study of Homo sapiens with 11 samples.

Results

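The genes that write, keep and erase DNA methylation were followed in ARPE-19 cells, a human cell line derived from the retinal pigment epithelium (RPE, the pigmented layer behind the retina), while pluripotency factors were expressed from introduced open reading frames (ORFs). The members were chosen by name: the DNA methyltransferases DNMT1, DNMT3A and DNMT3B, the maintenance partners UHRF1 and HELLS, the oxidases TET1, TET2 and TET3, and the glycosylase TDG. All 9 were found among the 60605 features of the deposited table, and all 9 passed the filter on low values that left 18828 genes for testing. Polyadenylated RNA was sequenced from stable lines after 4 days of ORF expression. The control line expressed GFP, a fluorescent protein, and gave 3 libraries. Lines expressing Oct4, Sox2 or Klf4 alone, or all of them together (OSK), gave 2 libraries each. The library names of all factor lines carry the label mC, and those of the GFP control do not. The labels do not say what mC stands for. Every line shares the ARPE-19 background. The promoter that drives the ORFs, their species and whether a line is 1 clone are not given in the sources used here. Nothing says that the libraries of a line came from separate cultures, so the p-values measure the spread between these libraries, which may be technical.

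DNA methylation in mammals is placed mainly on cytosines of CpG dinucleotides. DNMT3A and DNMT3B set it on unmethylated DNA, while DNMT1 copies it onto the new strand behind the replication fork, where UHRF1 recognises half-methylated sites and HELLS, a chromatin remodeller, gives access to packed DNA. The TET enzymes oxidise 5-methylcytosine, and TDG cuts out the most oxidised products so that base excision repair can put back an unmodified cytosine. DNMT1, UHRF1 and HELLS are also known to be made mostly in dividing cells. RNA was measured here, not methylation.

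Each library held between 15053300 and 19791775 reads. The values are normalised counts: gene counts that the authors divided by 1 factor per library. In 9 libraries 25853 to 26971 features were detected, against 42956 in GFP replicate 1 and 32493 in OSK replicate 1. Of 405 features named as olfactory receptor genes, 67.7% were detected in GFP replicate 1 and 23.0% in OSK replicate 1. In the other libraries 4.9 to 8.1% were. The mean chi-square per feature between replicates was 13.18 and 11.3 for GFP replicate 1 with GFP replicates 2 and 3. Between GFP replicates 2 and 3 it was 3.32. The cause was not tested. Of 15 markers of the RPE, 12 passed the filter; the keratin KRT8 had a mean of 15930.0 normalised counts in GFP, whereas RPE65, the isomerase of the visual cycle, was at 0 to 0.99 in the GFP libraries. In OSK against GFP 10 of these 12 markers were lower and 1 was higher (median log2 change −1.22, against −0.01 over all genes tested). Of all genes tested, 20% were called lower in OSK and 19.7% higher. Of 6 tested markers of pluripotent cells 3 were lower in OSK, and their summed level over 9 listed genes was 526 to 728 normalised counts in GFP and 349 to 471 in OSK; of 5 tested mesenchymal markers 3 were lower. Of 4 leukocyte markers 1 was tested, CD79A, at 10.12 to 29.79 normalised counts in GFP. It was called lower in Sox2 (−3.27 ± 0.75). CD3E reached 23.83 in GFP replicate 1, which also held the high end of CD79A. The 4 markers summed to 55.61 in that library and to 13.15 and 11.66 in GFP replicates 2 and 3. PTPRC and LYZ reached at most 2.24. In such bulk RNA, fewer cells of a type and less RNA per cell cannot be told apart.

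Per kilobase of exon, DNMT1 was the most abundant member with a mean of 181.4 normalised counts per kb over the 11 libraries. TDG followed with 128.5, DNMT3A with 78.97, DNMT3B with 62.95, TET3 with 47.53, TET2 with 37.79 and UHRF1 with 31.67. HELLS (12.79) and TET1 (6.808) were the lowest. The length used counts all annotated exons of a gene, whether or not its RNA here holds them. This order, and the ratios and shares between genes given below, depend on that choice. TET1 rested on only 24 to 105 reads per library, HELLS on 63 to 202 and UHRF1 on 53 to 274, so these 3 carry the most counting error, while DNMT1 had 1116 to 2466 reads.

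**Figure D1:**
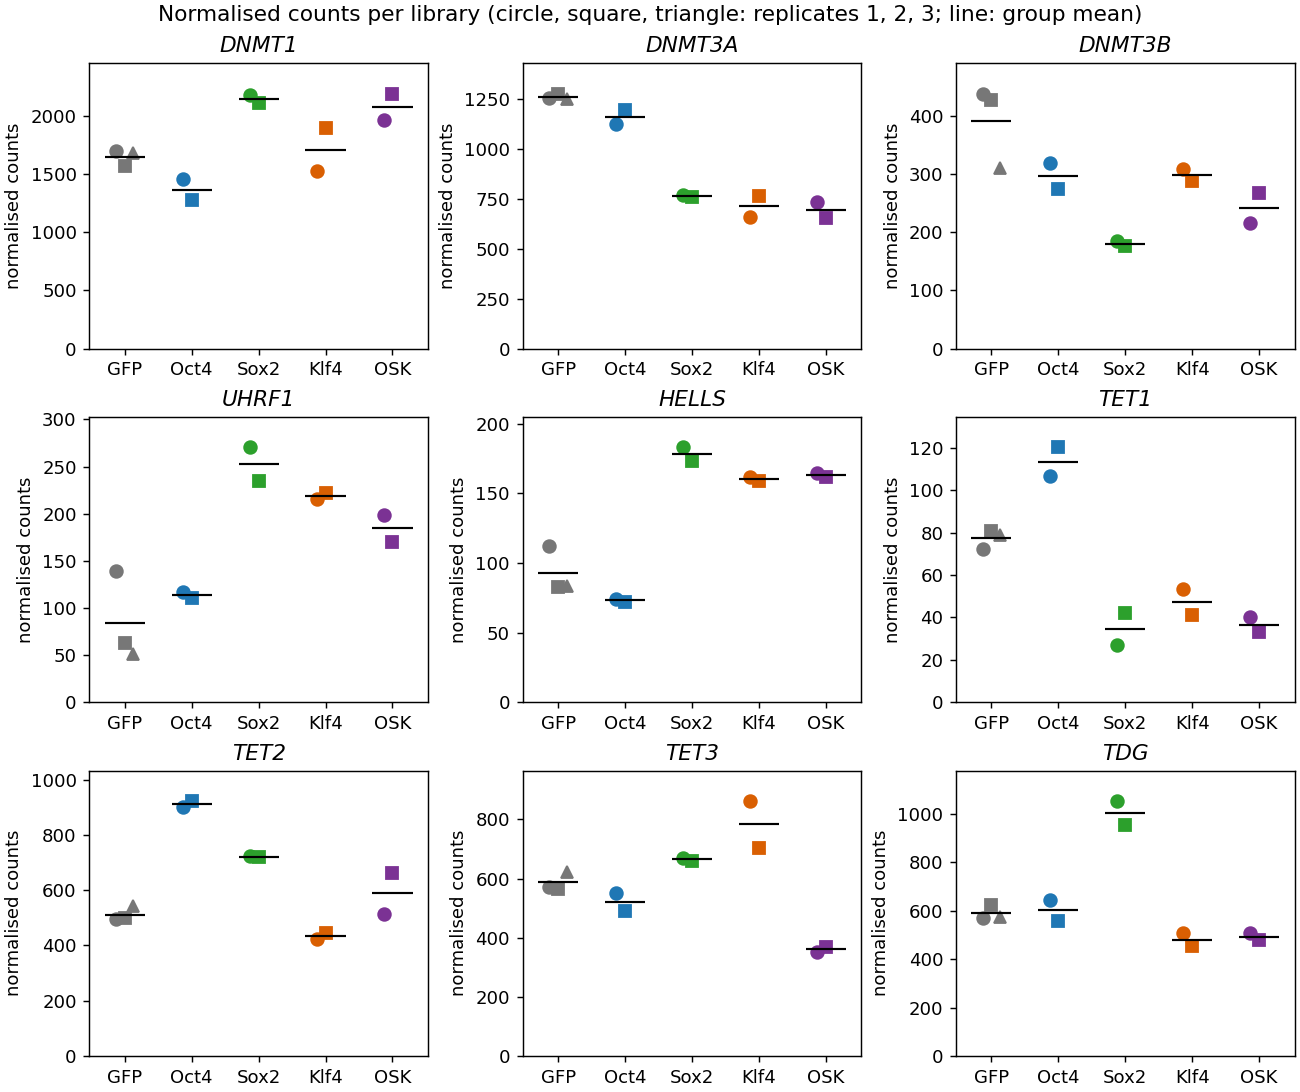
Normalised counts of the 9 genes in each of the 11 libraries, 1 panel per gene; each point is a library, each line a group mean, and each y axis starts at 0. The 3 GFP libraries of DNMT3A (1248 to 1277) lie above all Sox2, Klf4 and OSK libraries (653 to 769.7), and the OSK libraries of TET3 (352 and 368) lie below all others.

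Against GFP, 3 of the 9 genes passed the test in Oct4, 8 in Sox2, 6 in Klf4 and 8 in OSK. A gene passed where limma, fitted to log2(value + 1) of all 11 libraries, gave an adjusted p-value (Benjamini-Hochberg over all genes tested) under 0.05. The share of all tested genes that passed in the same way was 37.3% for Oct4, 41.6% for Sox2, 33.5% for Klf4 and 39.7% for OSK. By direction, 1 member was higher and 2 were lower in Oct4 (20.1% and 17.2% of all genes), 5 and 3 in Sox2 (21.7% and 19.9%), 3 and 3 in Klf4 (17.6% and 16%), and 3 and 5 in OSK (19.7% and 20%). The 3 genes of the Oct4 line are close to that background share; the counts of the other lines lie above it. These comparisons share the GFP libraries and are not independent of each other.

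**Figure D2:**
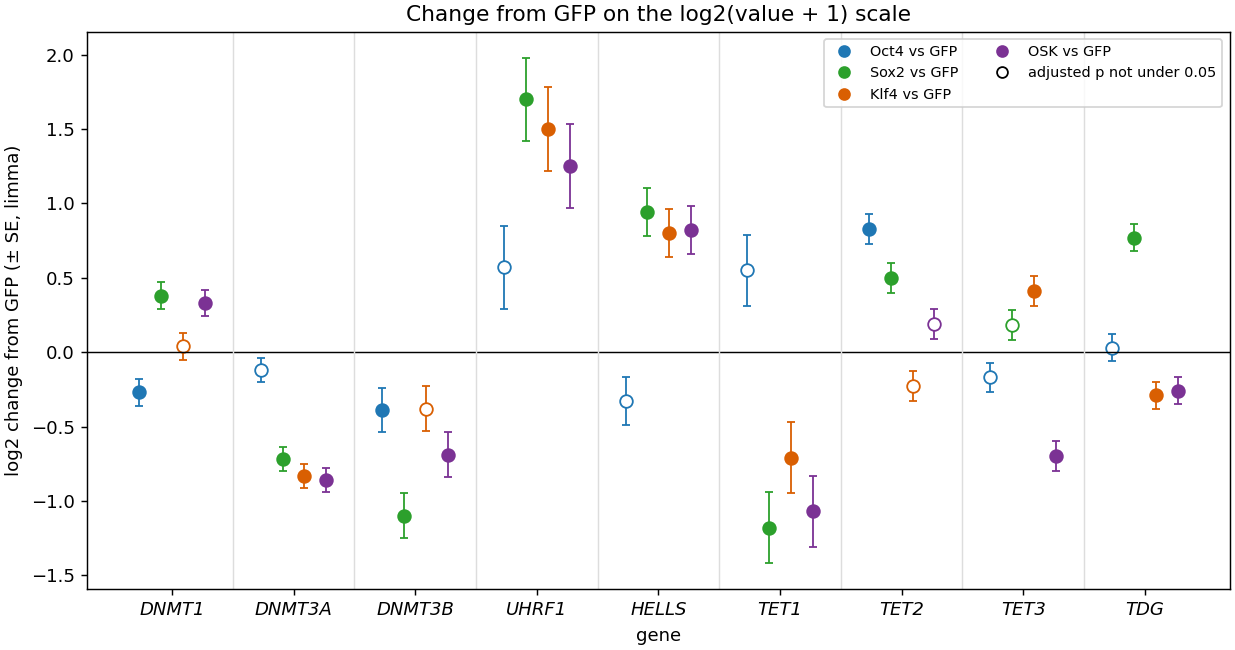
Log2 change from GFP of each of the 9 genes in the Oct4, Sox2, Klf4 and OSK lines; points are limma estimates, open where the adjusted p-value is not under 0.05, and error bars are standard errors. DNMT3A is near −0.8 in the Klf4 and OSK lines and TET2 is highest in the Oct4 line (0.83).

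The promoters of the members were read for motifs of cell cycle genes and of the expressed factors. Those of DNMT1, UHRF1 and HELLS are printed because they hold the E2F letters common among replication genes, with which these 3 members are compared below. RefSeq (GRCh38.p14) listed 20 start sites for the 9 genes, each taken with 250 bases before and 50 after. The E2F site, bound by the E2F family that acts at the entry into S phase, was searched on both strands as TTTCCCGC, TTTCGCGC, TTTGCCGC or TTTGGCGC. It was found at 3 of the 9 genes, DNMT1, UHRF1 and HELLS, and in no window of the other 6. The only DNMT3B window, at 32779602 to 32779901, lay inside the gene. The 5′ end of DNMT3B at 32762385 was thus not read. Counted by gene, 1090 of 27305 (3.99%) held a match, and of 22 S-phase genes with a window 13 (59.1%) did. Counted by window, 3.31% of all 35116 did. The sequences run 5′ to 3′ on the gene's strand, from 170 bases before to 20 after the start, with the E2F letters in capitals.
DNMT1, chr19:10194934-10195123, minus strand: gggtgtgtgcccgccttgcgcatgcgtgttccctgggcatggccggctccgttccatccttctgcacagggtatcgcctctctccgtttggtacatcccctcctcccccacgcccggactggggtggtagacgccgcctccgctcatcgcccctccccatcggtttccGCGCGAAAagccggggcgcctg
UHRF1, first start, chr19:4909331-4909520, plus strand: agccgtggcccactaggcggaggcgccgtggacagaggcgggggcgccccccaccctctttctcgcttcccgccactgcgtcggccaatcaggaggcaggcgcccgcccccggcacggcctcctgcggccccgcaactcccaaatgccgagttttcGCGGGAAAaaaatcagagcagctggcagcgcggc
UHRF1, next start, chr19:4909974-4910163, plus strand: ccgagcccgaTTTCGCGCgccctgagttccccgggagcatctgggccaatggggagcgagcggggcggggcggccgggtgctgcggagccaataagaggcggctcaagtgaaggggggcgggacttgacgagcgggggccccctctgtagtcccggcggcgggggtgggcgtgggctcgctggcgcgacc
HELLS, chr10:94545618-94545807, plus strand: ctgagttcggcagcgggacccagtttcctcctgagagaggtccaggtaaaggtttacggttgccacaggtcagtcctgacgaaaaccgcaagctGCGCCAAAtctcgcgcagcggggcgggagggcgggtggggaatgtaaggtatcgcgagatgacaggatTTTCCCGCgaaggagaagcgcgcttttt
In HELLS the letters lay at −76 to −69 and −8 to −1 from the start, in UHRF1 at −14 to −7 of the first start and −160 to −153 of the next, and in DNMT1 at −2 to 6. A KLF-type motif (GGGNGTGG) was present at DNMT1, DNMT3B, UHRF1 and TET3 and, counted by window rather than by gene, in 17.2% of all windows. The octamer ATGCAAAT, the letters that Oct4 binds, was in no member window and in 1.77% of all. The cell cycle homology region (TTTGAAA) was in 1 window each of DNMT3A and TET2 and in 6.13% of all. The member windows held between 3 CpG dinucleotides (the DNMT3B window inside the gene) and 46 (1 window each of DNMT3A and UHRF1), against a median of 14 over all windows. Such matches and counts describe the letters of these windows and show no binding.

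Of the maintenance genes, UHRF1 and HELLS rose in Sox2, Klf4 and OSK, and DNMT1 rose in Sox2 and OSK by less. UHRF1 is the reader that brings DNMT1 to half-methylated DNA (chromosome 19, 4903080 to 4962154, plus strand, GENCODE 29 on GRCh38). It had 139, 62.7 and 51.5 normalised counts in the GFP libraries, 117 and 111 in Oct4, 270.4 and 235 in Sox2, 215 and 222 in Klf4, and 198 and 170.5 in OSK. All Sox2, Klf4 and OSK libraries lay above all GFP libraries; the Oct4 libraries lay within the GFP range. GFP replicate 1, the library with the most detected features, was above both Oct4 libraries. The log2 changes from GFP were 1.70 ± 0.28 (SE) for Sox2, 1.5 ± 0.28 for Klf4 and 1.25 ± 0.28 for OSK, with limma adjusted p-values of 0.00014, 0.000654 and 0.00212. For Oct4 the change was 0.57 ± 0.28 (limma adjusted p = 0.134). Without GFP replicate 1 the changes became 2.13, 1.92 and 1.68, and that of Oct4 became 0.99 and passed the test (limma adjusted p = 8.65e-05; 8.65e-05 to 0.442 over its alternatives). No 2 neighbouring lines in the order Sox2, Klf4, OSK, Oct4, GFP differed past the threshold; OSK against Oct4 (0.68 ± 0.31, limma adjusted p = 0.0945) did so under 4 of 13 alternatives (0.00679 to 0.322).

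HELLS, whose remodelling activity is needed for methylation of repeats (chromosome 10, 94501434 to 94613905, plus strand), had 112, 83.0 and 83.6 normalised counts in GFP. Oct4 had 74.3 and 72.1, Sox2 183 and 173, Klf4 162 and 159, and OSK 165 and 162. The last 3 lines lay clear of GFP on the upper side and the Oct4 libraries below it. HELLS rose by 0.94 ± 0.16 (log2, SE) in Sox2, 0.80 ± 0.16 in Klf4 and 0.82 ± 0.16 in OSK (limma adjusted p = 0.000172, 0.00112 and 0.000649). The Oct4 value of −0.33 ± 0.16 did not pass (limma adjusted p = 0.129). Both Sox2 libraries lay above OSK and Klf4, but no difference between these 3 lines passed the test. HELLS shares 438 exon bases with AL138759.1 on the same strand, for which no value was found.

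DNMT1 itself (chromosome 19, 10133345 to 10231286, minus strand) had 1695, 1569 and 1685 normalised counts in GFP, 1454 and 1277 in Oct4, 2180.0 and 2112 in Sox2, 1522 and 1896 in Klf4, and 1968 and 2191 in OSK. The means of its lines spread least of all members, and that of the highest was 1.571 times that of the lowest. The Klf4 libraries lay on either side of GFP. DNMT1 rose in Sox2 (log2 0.38 ± 0.09 SE, limma adjusted p = 0.00309) and OSK (0.33 ± 0.09, 0.00819), and fell in Oct4 (−0.27 ± 0.09, 0.0267). Its change in Klf4 was 0.04 ± 0.09. The Oct4 call was lost under 6 of 14 alternatives, for example −0.18 without Oct4 replicate 2 (limma adjusted p = 0.27; 0.0254 to 0.27 over the alternatives), and −0.26 without GFP replicate 3. The OSK call was lost without OSK replicate 2 (0.25, limma adjusted p = 0.127; 0.00466 to 0.127). DNMT1 shares 83 exon bases with S1PR2 on the same strand, whose values were 8.0 to 52.6.

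Replication genes moved in the same lines. Of 27 S-phase genes, none of them a member, 16 rose and 1 fell in Sox2, 21 rose and 1 fell in Klf4, and 21 rose in OSK with none lower; their median log2 changes were 0.78, 0.79 and 0.84. In Oct4 3 rose and 6 fell (20.1% and 17.2% of all genes). Of all genes 21.7% rose and 19.9% fell in Sox2, 17.6% and 16% in Klf4, and 19.7% and 20% in OSK. RRM2, a subunit of ribonucleotide reductase, went from 90.5 normalised counts in GFP to 372 in Sox2, 397 in Klf4 and 441.2 in OSK. MCM2, part of the replicative helicase, fell in Oct4 (−0.53 ± 0.14) and rose in Klf4 (0.50 ± 0.14). Of 20 mitosis genes 6 rose in Oct4, 18 in Sox2, 19 in Klf4 and 19 in OSK, with medians of 0.28, 1.31, 2.50 and 2.27. MKI67, the proliferation marker, went from 218 to 2399 in Klf4 and 2066 in OSK. The Sox2, Klf4 and OSK libraries thus formed 1 cluster of high S-phase level (mean log2 value 7.88 to 8.15) and the GFP and Oct4 libraries another (7.01 to 7.21), so no correlation of the members with the S-phase level is given.

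Set against the mean of the 27 S-phase genes in the same library, HELLS shifted from GFP by −0.30 in Oct4, 0.13 in Sox2, −0.24 in Klf4 and −0.24 in OSK (log2). UHRF1 shifted by 0.59, 0.89, 0.46 and 0.19, and by 0.96, 1.25, 0.83 and 0.55 without GFP replicate 1. DNMT1 had shifts of −0.25, −0.43, −0.99 and −0.73. These shifts are descriptions without a test, and the part of cell division in the members' values was not tested.

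**Figure D3:**
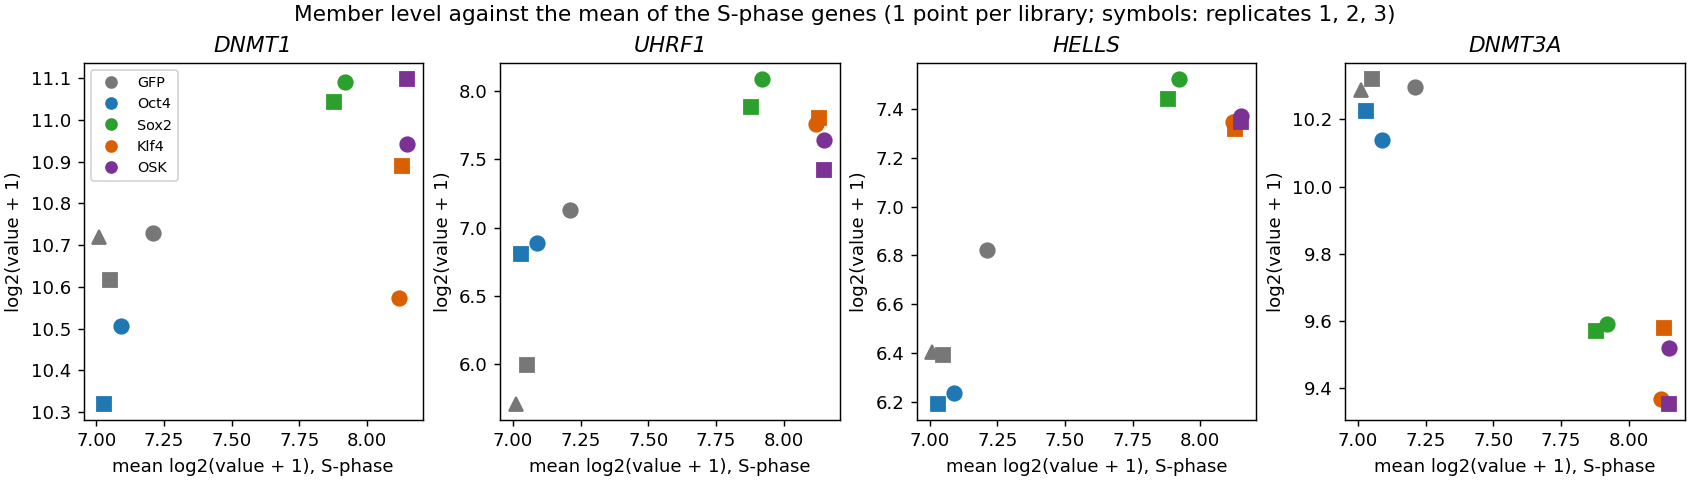
Log2(value + 1) of DNMT1, UHRF1, HELLS and DNMT3A on the y axes against the mean of the 27 S-phase genes on the x axes; each point is a library, coloured by line. GFP and Oct4 libraries sit at 7.01 to 7.21 on the x axis and Sox2, Klf4 and OSK libraries at 7.88 to 8.15, so each panel shows 2 clusters.

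In Sox2 and OSK the de novo methyltransferases moved the other way, and in Klf4 only DNMT3A was called lower. In Oct4 DNMT3B was called lower, as DNMT1 was. DNMT3A (chromosome 2, 25227855 to 25342590, minus strand), which sets methylation in differentiating and adult cells, had 1257, 1277 and 1248 normalised counts in GFP and 1125 and 1195 in Oct4. Sox2 had 769.7 and 759, Klf4 659 and 764, and OSK 733 and 653. The libraries split into a high group of GFP and Oct4 and a low group of the other lines, with no value in between. DNMT3A fell by 0.72 on the log2 scale in Sox2, by 0.83 in Klf4 and by 0.86 in OSK, each ± 0.08 (SE), with limma adjusted p-values of 2.35e-06, 8.93e-07 and 3.68e-07. These 3 calls held under all 14 alternatives. In Oct4 the value was −0.12 ± 0.08 (limma adjusted p = 0.269). Sox2, Klf4 and OSK did not differ past the threshold, so the level in OSK was not shown to lie below that of Sox2 or Klf4 alone.

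DNMT3B, the methyltransferase of pericentromeric repeats and of early embryos (chromosome 20, 32762385 to 32809356, plus strand), had 438, 427 and 310.1 normalised counts in GFP, 318 and 275 in Oct4, 184.0 and 176 in Sox2, 308 and 288 in Klf4, and 216 and 267 in OSK. GFP replicate 3 was lower than the other GFP libraries and lay among the Oct4 values. DNMT3B fell in Sox2 (−1.10 ± 0.15 log2, limma adjusted p = 1.49e-05) and in OSK (−0.69 ± 0.15, 0.00135). Its Oct4 value of −0.39 ± 0.15 just passed (limma adjusted p = 0.0492), and the Klf4 value of −0.38 ± 0.15 just missed (0.0599). The Oct4 call was lost under 9 of 14 alternatives (0.00512 to 0.304), among them those without GFP replicate 1 (−0.30), GFP replicate 2 (−0.32), Oct4 replicate 1 (−0.49) or Oct4 replicate 2 (−0.28). Without GFP replicate 3 the Klf4 value became −0.54 and passed (limma adjusted p = 0.00654; 0.00654 to 0.242). With both GFP replicate 1 and OSK replicate 1 left out, the OSK change became −0.44 and no longer passed (limma adjusted p = 0.0896; 0.000149 to 0.0896). DNMT3B differed between Sox2 and Klf4 (−0.72 ± 0.16, lower in Sox2).

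Per kilobase DNMT3A was 1.11, 1.15 and 1.55 times DNMT3B in the GFP libraries, 1.36 and 1.68 times in Oct4, 1.31 and 0.942 times in OSK, 1.61 and 1.67 times in Sox2, and 0.825 and 1.02 times in Klf4, where DNMT3A was low and DNMT3B was not called; the Oct4 and OSK values overlapped GFP, and no test was made. The ratio of DNMT1 to both de novo enzymes together, per kilobase, was 0.807 to 1.01 in GFP, 0.914 and 0.821 in Oct4, 1.28 and 1.54 in Klf4, 1.87 and 2.0 in OSK, and 2.14 and 2.13 in Sox2. Oct4 and GFP overlapped, and the other lines lay above both. The sum of the 3 methyltransferases per kilobase moved less, from 277 in a Klf4 library to 372 in a GFP library.

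Among the erasers, TET1 fell in Sox2, Klf4 and OSK, TET2 rose in Oct4 and Sox2, and TET3 rose in Klf4 and fell in OSK. TET1 (chromosome 10, 68560656 to 68694482, plus strand), known from embryonic stem cells and germ cells, had 72.5, 80.9 and 78.7 normalised counts in GFP and 107 and 120.2 in Oct4. It had 26.9 and 42.0 in Sox2, 53.2 and 41.1 in Klf4, and 40.1 and 33.0 in OSK. Every Oct4 library lay above GFP and every library of the other 3 lines below it. TET1 fell by 1.18 in Sox2, 0.71 in Klf4 and 1.07 in OSK (log2, each ± 0.24 SE; limma adjusted p = 0.000901, 0.0324 and 0.00211). The Oct4 value of 0.55 ± 0.24 did not pass (limma adjusted p = 0.0904). The Klf4 call was lost under 8 of 14 alternatives (0.028 to 0.228), among them those without GFP replicate 2 (−0.68), GFP replicate 3 (−0.70) or Klf4 replicate 2 (−0.53). Oct4 against Sox2 differed by 1.72 ± 0.26 (limma adjusted p = 9.1e-05).

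TET2 (chromosome 4, 105145875 to 105279816, plus strand), the member often mutated in blood cancers, had 495, 499 and 541 normalised counts in GFP. It had 899.9 and 923 in Oct4, 723 and 721 in Sox2, 423 and 447 in Klf4, and 514 and 663 in OSK. Both Oct4 libraries were above all others, and OSK replicate 1 lay within the GFP range. TET2 rose in Oct4 by 0.83 ± 0.10 and in Sox2 by 0.50 ± 0.10 (log2, SE; limma adjusted p = 5.64e-06 and 0.000684). Its values in Klf4 (−0.23 ± 0.10) and OSK (0.19 ± 0.10) did not pass. Without OSK replicate 1 the OSK value was 0.38 and passed (limma adjusted p = 0.0116; 0.0116 to 0.969 over its alternatives), and without OSK replicate 2 it was 0.01. Few reads came from the antisense TET2-AS1, at most 4.86 normalised counts in a library.

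TET3 (chromosome 2, 73986404 to 74108176, plus strand), known for oxidising the paternal genome in the zygote, had 572, 566 and 622 normalised counts in GFP, 552 and 489.9 in Oct4, 671 and 658 in Sox2, 862 and 704 in Klf4, and 352 and 368 in OSK. The OSK libraries were below every other library and the Klf4 libraries above. TET3 fell by 0.70 ± 0.10 in OSK (log2, limma adjusted p = 2.44e-05) and rose by 0.41 ± 0.10 in Klf4 (0.00368). Oct4 (−0.17 ± 0.10) and Sox2 (0.18 ± 0.10) did not pass. The Klf4 call was lost without Klf4 replicate 1 (0.26, limma adjusted p = 0.102; 0.00166 to 0.102), while the OSK call held under all 14 alternatives. In the order Klf4, Sox2, GFP, Oct4, OSK only the last step, of 0.53 ± 0.11, passed.

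The 3 TET levels per kilobase summed to 84.4 to 92.0 in GFP, 111 and 109 in Oct4, 101 and 102 in Sox2, 102 and 88.9 in Klf4, and 64.2 and 73.8 in OSK. OSK thus had the lowest sum of the 5 lines, with no overlap. TET1 made up 9.21 to 10.2% of that sum in GFP, 10.4 and 11.9% in Oct4, and between 2.86 and 6.72% in the other lines. TET3 was the largest share in GFP (54.2 to 55.2%), Sox2 (52.6 and 53.9%) and Klf4 (64.5 and 69.1%), and TET2 in Oct4 (49.2 and 51.4%) and OSK (48.6 and 54.5%). The ratio of TET2 to TET3 was 0.644 to 0.657 in GFP, 1.22 and 1.40 in Oct4, 1.09 and 1.34 in OSK, and 0.366 and 0.473 in Klf4. These shares describe RNA and carry no test. They also depend on the exon lengths used. Without division by length, TET2 was above TET3 in Sox2 (means of 721.8 and 664.3 normalised counts).

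**Figure D4:**
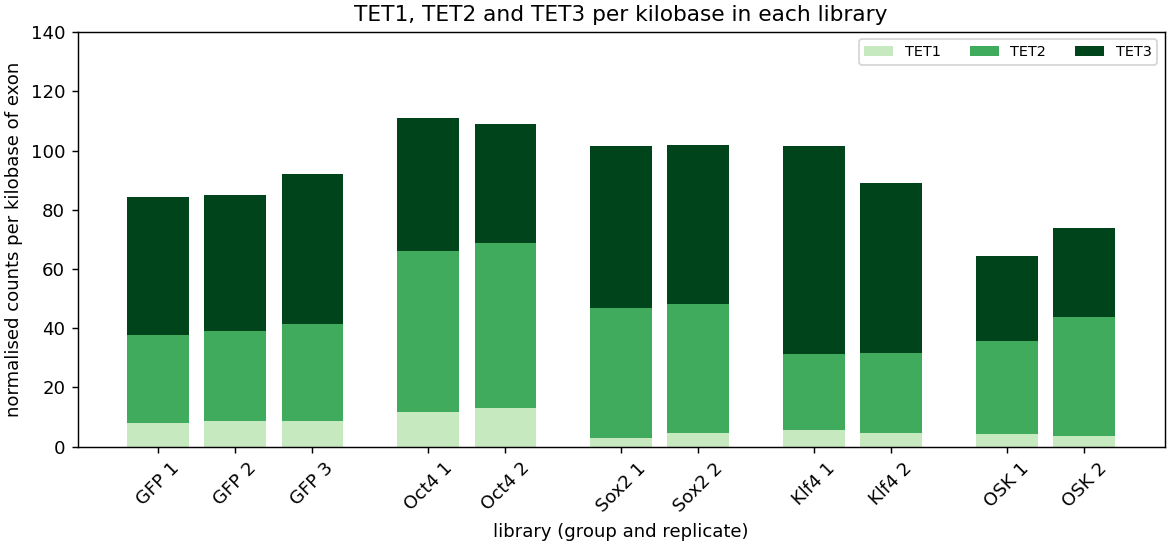
Normalised counts per kilobase of TET1, TET2 and TET3, stacked for each of the 11 libraries, with the y axis starting at 0. The OSK stacks (64.2 and 73.8) are the lowest, and TET2 is the largest part in the Oct4 and OSK libraries.

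TDG (chromosome 12, 103965804 to 103988874, plus strand), which removes the oxidised bases that TET enzymes make, stood out in 1 line. Its normalised counts were 570.0, 623 and 575 in GFP, 646 and 557 in Oct4, 1054 and 956 in Sox2, 509 and 454 in Klf4, and 509 and 477 in OSK. Both Sox2 libraries lay far above the rest, and Klf4 and OSK lay below GFP. TDG rose by 0.77 ± 0.09 in Sox2 (log2, limma adjusted p = 5.05e-06) and fell by 0.29 ± 0.09 in Klf4 (0.0223) and by 0.26 ± 0.09 in OSK (0.0376). The call in Klf4 was lost under 5 of 14 alternatives (0.0182 to 0.208), among them those without GFP replicate 2 (−0.25) or Klf4 replicate 2 (−0.21), and that in OSK under 10 of 14 (0.0304 to 0.223), among them those without GFP replicate 2 (−0.22), GFP replicate 3 (−0.27), OSK replicate 1 (−0.30) or OSK replicate 2 (−0.21). In Sox2 the call held under all 14. The TDG copy TDGP1 had at most 9.93 normalised counts, so little of the TDG level could be shared with it if reads were split.

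The Oct4 line differed from Sox2 and Klf4 in most members, while Sox2 and Klf4 differed in a share near that of all genes. Between Oct4 and Sox2 all 9 genes passed (33.4% of all genes tested), 4 higher in Oct4 (18%) and 5 lower (15.4%). Between Oct4 and Klf4 8 passed (41.7%), 4 higher in Oct4 (21.8%) and 4 lower (20%), and between Sox2 and Klf4 4 passed (40.8%), 3 higher in Sox2 (20.1%) and 1 lower (20.7%). With a library left out, the Oct4 against Sox2 calls of UHRF1 (−1.03 without Sox2 replicate 1, −1.10 without Oct4 replicate 2), TET2 (0.32 to 0.35 without any of the 4 libraries) and TET3 (−0.27 without Oct4 replicate 2, −0.34 and −0.37 without Sox2 replicate 1 or 2) were lost. So were the Oct4 against Klf4 calls of DNMT1 (−0.22 without Oct4 replicate 2, −0.16 without Klf4 replicate 2), UHRF1 (−0.97 to −0.89 without any of the 4) and TDG (0.21 without Oct4 replicate 1, 0.24 without Klf4 replicate 2). Sox2 and Klf4 differed in DNMT1 (0.34 ± 0.10 higher in Sox2), TET2 (0.73 ± 0.11 higher), TDG (1.06 ± 0.10 higher) and DNMT3B (0.72 ± 0.16 lower). The DNMT1 call was lost without Klf4 replicate 1 (0.18) or Sox2 replicate 1 (0.31). Oct4 and Klf4 were not shown to differ in DNMT3B (−0.01 ± 0.16).

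OSK was compared with each of its single factors to see how the combination differs from its parts. Against Oct4 7 of 9 genes passed (40.3% of all genes), 2 higher in OSK (18.4%) and 5 lower (21.9%). Against Sox2 3 passed (40.5%), all lower in OSK (20.5%) and none higher (20%), and against Klf4 2 passed (21.5%), 1 higher (9.56%) and 1 lower (11.9%). OSK was above Oct4 in DNMT1 (log2 0.61) and HELLS (1.15), and below it in DNMT3A (−0.74), TET1 (−1.61), TET2 (−0.64), TET3 (−0.53) and TDG (−0.28). Against Sox2 the calls were TET2 (−0.31 ± 0.11), TET3 (−0.88 ± 0.11) and TDG (−1.02 ± 0.10). DNMT3B just missed there, higher in OSK (0.42 ± 0.16, limma adjusted p = 0.0502), and passed under 4 of 13 alternatives (0.0277 to 0.34), for example without OSK replicate 1 (0.57). UHRF1 (−0.45 ± 0.31) passed under 2 of 13 (0.0243 to 0.592). TET3 was also lower than in Klf4 (−1.11 ± 0.11, limma adjusted p = 1.26e-06), where TET2 was higher (0.42 ± 0.11, 0.00958). Only TET3 was called lower in OSK against GFP and against each single-factor line. The mean of DNMT3A was also lowest in OSK, but its differences from Sox2 and Klf4 did not pass. The TET2 call against Sox2 was lost under 8 of 13 alternatives, among them those without Sox2 replicate 1 (−0.30), Sox2 replicate 2 (−0.31) or OSK replicate 1 (−0.12), and that against Klf4 without Klf4 replicate 1 (0.39) or OSK replicate 2 (0.24). The TDG call against Oct4 was lost under 9 of 13 alternatives, among them those without Oct4 replicate 1 (−0.18), OSK replicate 1 (−0.33) or OSK replicate 2 (−0.24).

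Had the factors acted additively on the log2 scale, the OSK change would equal the sum of the 3 single changes. For 6 of 9 genes it did not (35.9% of all genes tested), with 2 above the sum (15.6%) and 4 below it (20.3%), and these 6 calls held under all 19 alternatives. UHRF1 rose by 1.25 in OSK against a sum of 3.77, a difference of −2.52 ± 0.57 (limma adjusted p = 0.00245) that was −3.37 without GFP replicate 1 and −1.95 without GFP replicate 3. DNMT3A and DNMT3B fell less than the sum, by 0.80 ± 0.16 and 1.18 ± 0.29. TET2 and TDG had positive sums (1.10 and 0.50) and OSK changes of 0.19 and −0.26. TET3 had a sum of 0.42 and fell by 0.70, a difference of −1.12 ± 0.19 (limma adjusted p = 0.000283). DNMT1 (0.18 ± 0.18), HELLS (−0.59 ± 0.32) and TET1 (0.28 ± 0.48) did not pass; for HELLS the value became −0.88 and passed without GFP replicate 1 (limma adjusted p = 0.0407; 0.0407 to 0.407). The amount of each factor made in the lines was not compared here.

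With both GFP replicate 1 and OSK replicate 1 left out, an alternative chosen after seeing the data, 7 of the members' calls were lost and 6 were gained. Lost were DNMT1 (−0.25) and DNMT3B (−0.30) in Oct4, TET1 in Klf4 (−0.76), DNMT3B (−0.44) and TDG (−0.33) in OSK, TDG in OSK against Oct4 (−0.33) and TET2 in OSK against Sox2 (−0.12). Gained were UHRF1 in Oct4 (0.99), TET2 in Klf4 (−0.26) and OSK (0.35), UHRF1 in OSK against Oct4 (0.58) and, in OSK against Sox2, DNMT3B (0.57) and UHRF1 (−0.56).

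**Figure D5:**
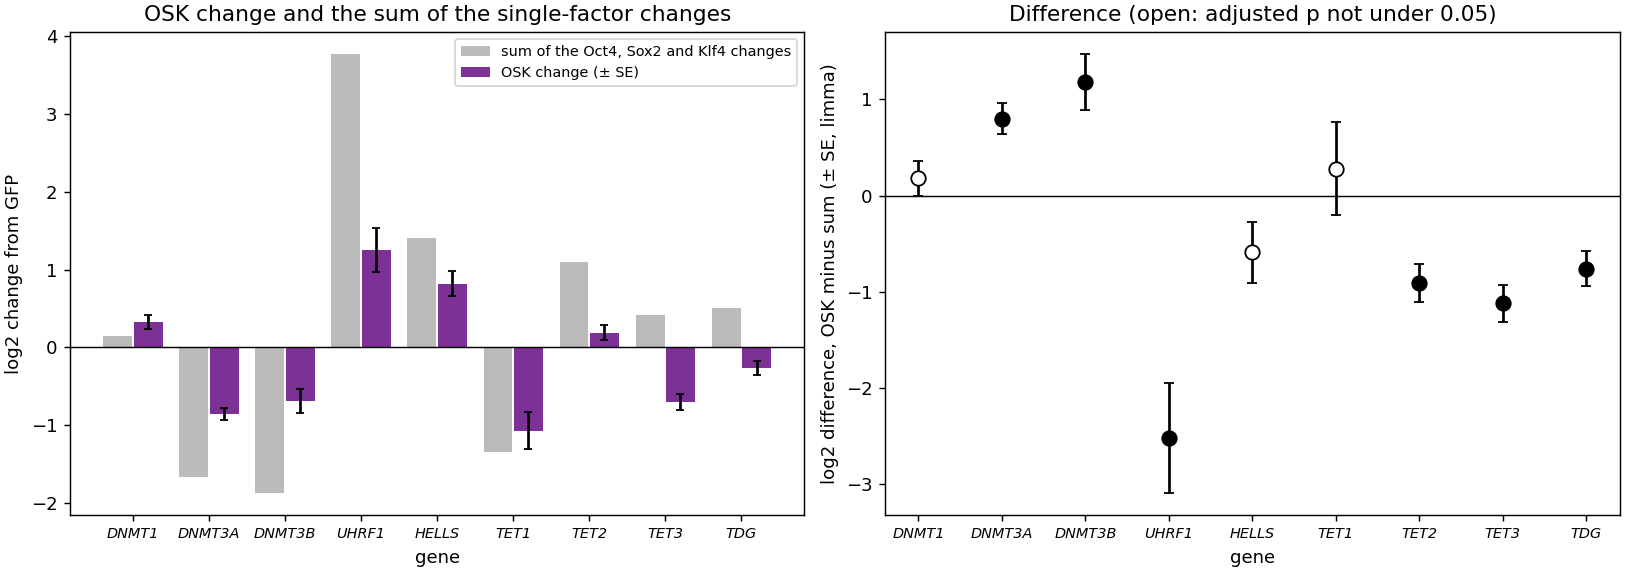
Left, the log2 change of OSK from GFP (bars with SE) beside the sum of the Oct4, Sox2 and Klf4 changes for each gene; right, their difference with its SE, filled where the limma adjusted p-value is under 0.05. TET3 has a sum of 0.42 and an OSK change of −0.70, and UHRF1 has the largest difference (−2.52).

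Of 7 partners of maintenance methylation (UHRF2, USP7, PCNA, PCLAF, LIG1, CDCA7 and CDCA7L), 2 rose and 1 fell in OSK (median log2 change 0.11, against −0.01 over all genes), near the shares of all genes. PCLAF, which binds PCNA and whose ubiquitinated form helps recruit DNMT1, rose most (1.34 ± 0.41), from 14.2 to 36.5 normalised counts. PCNA, the sliding clamp, rose by 0.52 ± 0.07, and CDCA7L fell by 0.69 ± 0.08. CDCA7, the partner of HELLS, was at 30.4 in GFP and 49.2 in OSK (0.68 ± 0.29, limma adjusted p = 0.077). UHRF2, the relative of UHRF1, fell in Sox2 (−0.39 ± 0.08), where UHRF1 rose. In Oct4 1 of these partners rose and 3 fell, in Sox2 2 and 2, and in Klf4 3 and 1. The shares of all genes were 20.1% and 17.2%, 21.7% and 19.9%, and 17.6% and 16%.

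Of 9 partners of de novo methylation 7 were tested, and 2 fell in OSK with none higher (median −0.04), against 20% and 19.7% of all genes. TRIM28, the corepressor that zinc-finger proteins bring to repeats, fell in all 4 lines, by 0.55 in Oct4, 0.19 in Sox2, 0.36 in Klf4 and 0.28 in OSK. EHMT2, a histone H3 lysine 9 methyltransferase, fell by 0.77, 0.50, 0.32 and 0.56. DNMT3L, the catalytically inactive DNMT3 cofactor of germ cells, was not tested: its highest value was 8.94, in GFP replicate 1. Of the 7 proteins that read methylated DNA, 4 rose and 2 fell in Sox2 (median 0.38, against −0.02 over all genes). There 21.7% of all genes were higher and 19.9% lower. In OSK 2 readers rose and 3 fell (median −0.02), against 19.7% and 20% of all genes. MBD2, which recruits a deacetylase complex to methylated CpG sites, rose by 1.07 ± 0.07 in Sox2, 0.33 in Oct4 and 0.20 in OSK. ZBTB38 was the reader that rose most in OSK (0.75 ± 0.09). MBD2 was thus highest in the line in which TDG was highest.

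Downstream of the TET enzymes, 16 of 17 partners of erasure were tested. Of these 3 rose and 6 fell in OSK (median −0.05), against 19.7% and 20% of all genes. APEX1, the endonuclease that cuts after TDG, fell in all 4 lines: by 0.74 in Oct4, 0.96 in Sox2, 0.43 in Klf4 and 0.51 in OSK. POLB, which fills the gap, fell by 0.91 ± 0.17 in OSK, and XRCC1, its scaffold, by 0.37 ± 0.10. GADD45A, which has been linked to TDG-dependent demethylation, fell by 1.14 in Sox2, 1.19 in Klf4 and 1.38 in OSK, and GADD45B fell most in OSK (−2.24 ± 0.15). NEIL3 rose most (1.54 ± 0.33), from 21.7 to 63.4 normalised counts. OGT, the glycosyltransferase that binds TET2 and TET3, rose in all 4 lines, by 0.82, 0.51, 0.43 and 1.11. MBD4, the other thymine glycosylase for CpG sites, rose in Sox2 as TDG did (0.47 ± 0.10) and had a value of 0.20 ± 0.10 in OSK. In Oct4 1 partner rose and 5 fell, in Sox2 3 and 5, and in Klf4 4 and 6. The shares of all genes were 20.1% and 17.2%, 21.7% and 19.9%, and 17.6% and 16%.

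The list of 12 enzymes and transporters that supply the methyl donor, 2-oxoglutarate and vitamin C had 5 higher and 1 lower in OSK (median 0.22). Of all genes 19.7% were higher there and 20% lower. IDH1, a source of 2-oxoglutarate in the cytosol, rose by 1.19 ± 0.07, from 1022 to 2336 normalised counts, and AHCY, which clears the product of methylation, fell by 0.44 ± 0.07. MAT2A, which makes S-adenosylmethionine, fell in Sox2 by 0.92 ± 0.07 and in Oct4 by 0.28. SLC23A2, a vitamin C transporter, rose in Oct4 (0.59 ± 0.07) and Sox2 (0.39 ± 0.07). In Oct4 2 of the 12 rose and 4 fell, in Sox2 3 and 4, and in Klf4 5 and 2. The shares of all genes were 20.1% and 17.2%, 21.7% and 19.9%, and 17.6% and 16%.

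Of 16 germ cell genes known to be kept silent by promoter methylation in other tissues, 4 passed the filter, and none of these 4 passed the test in OSK against GFP. Against Oct4, TDRD6 (34.1 to 54.2 normalised counts in OSK) and STK31 (16.5 to 23.9) were called higher, as were 18.4% of all genes. DAZL was at 0 to 9.93 normalised counts in GFP and 1.08 to 2.2 in OSK, and MAEL at 0.97 to 1.99 and 1.1 to 3.25. The high end of DAZL came from GFP replicate 1. STK31 was called lower in Oct4, with a mean of 1.74 (0 to 3.48) against 18.1 in GFP (6.07 to 32.8, the high end in GFP replicate 1). SYCP3 just passed as higher in Klf4, with 27.6 (19.4 to 35.9) against 10.8 (6.07 to 15.6, limma adjusted p = 0.0478). Of all genes 17.2% were lower in Oct4 and 17.6% higher in Klf4. TEX14 passed the filter only through 26.8 in GFP replicate 1 and 10.84 in OSK replicate 1, the libraries with the most detected features. The calls of these germ cell genes were not checked under the alternatives.

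Over the 11 libraries, the genes whose log2 values followed each member most closely (Pearson's r among 16376 genes; the libraries fall into the clusters of lines above, so r describes this set and is given without a p-value) were listed to show what shares its pattern. DNMT3A was followed by GNPTAB (r = 0.984), PDZRN3 (0.974) and GADD45A (0.97). UHRF1 was followed by TMEM216 (0.989), MCM10 (0.951) and STIL (0.949), and HELLS by FAR1 (0.965), BRCA2 (0.963) and MYO9A (0.959). For DNMT1 these were TFPI2 (0.96), STIP1 (0.957) and SIPA1 (0.956), and for DNMT3B TRIM71 (0.963), LMBR1L (0.96) and SNHG6 (0.957). TET1 had LYPLAL1 (0.958), DAB2 (0.957) and TIGD2 (0.955), TET2 had STAU1 (0.978), SLC23A2 (0.973) and SGCB (0.973), and TET3 had RAB11FIP5 (0.952), CEP170B (0.941) and CRYZ (0.94). TDG was followed by USP32P3 (0.985), NBEAP2 (0.981) and DNAJB2 (0.98), of which the first 2 are pseudogenes.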

How the data were processed

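The deposited table holds a signal in normalised counts for 60605 features in 11 libraries. The submitters' processing notes list STAR 2.7.1a and featureCounts 1.6.2 with the builds GRCh38, hg38, GRCm38 and mm10, without a role for each. The annotation, the use of strand and the normalisation tool are not given in the sources used here. From the values, the deposited numbers are counts divided by 1 factor per library and rounded to 2 decimals: of values no higher than 200, 100% lay within 0.0061 of a whole number of reads. Groups came from the sample titles.

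Log2(value + 1) was tested with limma 3.58.1 in R 4.3.3 (lmFit, then eBayes with trend); the pseudocount shrinks changes of low genes. The filter kept genes reaching 10 in 2 or more libraries, with all 11 libraries in 1 fit (6 residual and 9.21 prior degrees of freedom) and Benjamini-Hochberg adjustment over 18828 genes and a threshold of 0.05. The procedure was tested on simulated data, which held no library with extra detected features like GFP replicate 1 or OSK replicate 1. That test says nothing of their effect on the calls, and its outcome is not reported here. Alternatives were edgeR 4.0.16 and DESeq2 1.42.0 on recovered reads, TMM factors, no filter, a pseudocount of 5, only the compared groups, a replicate block and leaving out each library. Exon lengths, counted over all annotated exons of a gene, and positions came from GENCODE 29 and promoters from RefSeq (GRCh38.p14).

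The members, gene lists and tests were chosen with earlier results of these data known. Named genes are the 9 members, 18 further genes fixed by name, the highest and lowest called gene of each partner list in OSK, and the 3 genes most alike each member; 1 gene of this rule is not reported here. POLB, XRCC1, OGT, STK31, SYCP3, TEX14, TDRD6, LIG1, USP7, KRT8, RPE65, PTPRC, CD79A, CD3E and LYZ fall outside that rule. They were chosen from the lists after their values were seen.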

Additional observations from a re-analysis of the deposited data

Results flagged for a closer look

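For 6 genes the OSK change differed, by the limma contrast itself, from the sum of the Oct4, Sox2 and Klf4 changes. The differences were 0.80 for DNMT3A and 1.18 for DNMT3B, so both fell less in OSK than the sum of the single changes. They were −2.52 for UHRF1 (−3.37 without GFP replicate 1 and −1.95 without GFP replicate 3), −0.91 for TET2, −1.12 for TET3 and −0.76 for TDG, so these lay below the sum. In the same contrast 14 of 27 S-phase genes lay below the sum and 2 above it (median −0.82), and 17 of 20 mitosis genes lay below it (median −1.75), against a median of −0.02 over all genes. Of all genes 20.3% lay below the sum and 15.6% above it. The part of these genes' changes in the UHRF1 value was not tested.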

How the results depend on the processing

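Over 99 member changes and 1350 alternative values, 1218 kept their direction and side of the threshold, 94 lost their call, 23 gained one and 15 changed sign. Of 64 called changes, 46 held under every alternative run and none changed sign. Sign changes were seen only in values that did not pass. With both GFP replicate 1 and OSK replicate 1 left out, chosen after seeing the data, DNMT1 in OSK against Sox2 became 0.03, TET1 there −0.03 and TDG in OSK against Klf4 −0.01. Leaving out single libraries moved TDG in Oct4 against GFP between −0.08 and 0.13, DNMT1 in Klf4 against GFP between −0.12 and 0.20, DNMT1 in OSK against Sox2 between −0.12 and 0.03 and TET1 there between −0.20 and 0.42. It moved DNMT3A in OSK against Klf4 between −0.14 and 0.07, TDG there between −0.05 and 0.12, DNMT3B in Oct4 against Klf4 between −0.12 and 0.10, and TET1 in the OSK change minus the sum between −0.03 and 0.59. Members called in Oct4 against GFP fell from 3 to 1 with TMM factors and to 1 with no filter (1 to 3 with a library left out). In OSK against Klf4 they fell from 2 to 1 with TMM factors and to 1 with only the compared groups (1 to 3), and in Oct4 against Klf4 from 8 to 5 with no filter (5 to 7). All genes called in OSK against Klf4 fell from 4049 to between 2519 and 3226 with a library left out, where fewer samples enter. Otherwise the cause was not tested. The edgeR test on recovered reads with TMM called 6774, 7834, 6048 and 7232 genes in Oct4, Sox2, Klf4 and OSK against GFP, and 3, 8, 6 and 7 members. TMM factors moved the median of all genes in the OSK change minus the sum from −0.02 to −0.14.

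The replicate numbers share no stated source, and differences between numbers correlated at −0.069 to 0.042 between lines, except 0.412 between GFP and OSK, whose first replicates have the most detected features. With the replicate number as a block, 2 of 9 members were called in Oct4 (32.2% of all genes), 8 in Sox2 (37.4%), 6 in Klf4 (28.3%) and 7 in OSK (34.4%) against GFP, 8, 4 and 2 in OSK against Oct4, Sox2 and Klf4 (38.8%, 38.9% and 19.9%), and 6 against the sum (31.1%). Depth limits TET1 most.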
